A study of Mus musculus with 16 samples.

Results

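The Slc25 genes encode the mitochondrial carriers, the family of transport proteins through which most metabolites cross the inner mitochondrial membrane. Its members were taken as the protein-coding genes whose mouse symbol begins with Slc25a and that had at least 10 reads in 4 or more of the 16 libraries. The table of 56980 genes held 47 protein-coding genes with such a symbol, of which 43 met the read limit, and all 43 entered the tests. The other 4 were read too rarely: Slc25a18 had at most 9 reads in a library, Slc25a31 at most 3, Slc25a41 at most 2, and Slc25a54 had 0. Of the members kept, Slc25a2 and Slc25a43 lay nearest to the limit, with 12 and 14 libraries at 10 reads or more.

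RNA came from kidney cortex of male C57Bl/6J mice with a floxed Degs1 gene, the gene for the desaturase that makes ceramide from dihydroceramide. In iGKO mice a ubiquitous, tamoxifen-activated Cre from the Rosa26 locus (Rosa26-CreERT2) deletes Degs1 in the whole body, so the deletion is not limited to tubule cells, and Degs1fl/fl littermates (fl/fl) were the controls. Both genotypes had tamoxifen (3 mg on 5 days) at 9 weeks and surgery at 12 weeks, and cortex was taken 24 h after it. The 4 groups of 4 samples were iGKO mice after bilateral ischaemia-reperfusion injury with 28 min of clamping (iGKO IRI), fl/fl mice after the same injury (fl/fl IRI), iGKO mice after a sham operation without clamping (iGKO sham) and fl/fl mice after it (fl/fl sham). The study asked what loss of Degs1 does to mitochondria and tubules in acute kidney injury, per its title.

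Libraries held 12704273 to 18816343 counts. Levels are TMM-scaled counts per 1000000 (CPM). Degs1 had 58.4, 54.8, 44.7 and 59.8 CPM in iGKO IRI and 88.8, 115, 133 and 114 CPM in fl/fl IRI, against 65.3, 50.7, 71.7 and 40.2 CPM in iGKO sham and 113, 84.0, 98.7 and 105 CPM in fl/fl sham, so the genotypes did not overlap after either operation. Mean Degs1 in iGKO mice was 48.4% of the fl/fl level after IRI and 56.8% after sham operation. Havcr1, the kidney injury marker KIM-1, had 84.0, 104, 28.0 and 122 CPM in iGKO IRI and 101, 1325, 1666 and 710.3 CPM in fl/fl IRI, against at most 126 CPM in iGKO sham and 24.7 CPM in fl/fl sham. The highest iGKO sham library, at 126 CPM, lay above every iGKO IRI library and above fl/fl IRI 1. The library fl/fl IRI 1 was far below the other fl/fl IRI libraries, and results that rest on it are given with and without it. It was singled out by an outcome, and its Havcr1 lay within the 28.0 to 122 CPM of the iGKO IRI libraries, all of which were kept. Fits without fl/fl IRI 1 therefore favour a larger fl/fl response and a difference between the genotypes. In iGKO sham 4, mitochondrially encoded genes took 0.443% of counts, where the other 15 libraries ranged from 2.05% to 6.48%. The samples carry 1 batch label, and nothing in the labels ties a replicate number to a shared animal or day.

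Mitochondrial carriers are small proteins built from repeats of paired membrane helices, coded in the nucleus. Most exchange one metabolite for another, and so link the cytosol to respiration: adenine nucleotide carriers export ATP for ADP, the phosphate carrier brings in phosphate for ATP synthase, and the aspartate-glutamate and oxoglutarate-malate carriers move reducing equivalents inward in the malate-aspartate shuttle. In the kidney, the proximal tubule depends on this traffic, since it reabsorbs solutes with ATP from oxidation of fatty acids and other fuels and makes glucose from carbon that leaves the mitochondria. The members were grouped here into 8 classes by the substrate each is best known to carry.

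The most abundant carrier was Slc25a5, adenine nucleotide translocase ANT2. Per kilobase of exon it averaged 307 ± 49.8 CPM in iGKO IRI, 266 ± 37.8 in fl/fl IRI, 408 ± 117 in iGKO sham and 388 ± 52.7 in fl/fl sham (SD, n = 4 each). It has processed copies in the genome, and reads that such copies share were not resolved here, so its level is uncertain. Next in the mean over all libraries, on the same per-kilobase scale, came the glutathione carrier Slc25a39 at 169, the dicarboxylate carrier Slc25a10 at 143, the phosphate carrier Slc25a3 at 116 and the translocase ANT1, Slc25a4, at 104. In fl/fl sham the levels of Slc25a39, 173 ± 18.4, and Slc25a10, 166 ± 33.7, differed by less than either SD, and those of Slc25a3, 122 ± 10.1, and Slc25a4, 103 ± 11.4, by less than their SDs added (n = 4 each). The least abundant were Slc25a53 at 0.494, Slc25a43 at 0.579 and Slc25a2 at 0.588 CPM per kilobase. Together the 43 members took 0.462 to 0.540% of all counts in iGKO IRI, 0.318 to 0.507% in fl/fl IRI, 0.510 to 0.548% in iGKO sham and 0.473 to 0.556% in fl/fl sham.

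**Figure D1:**
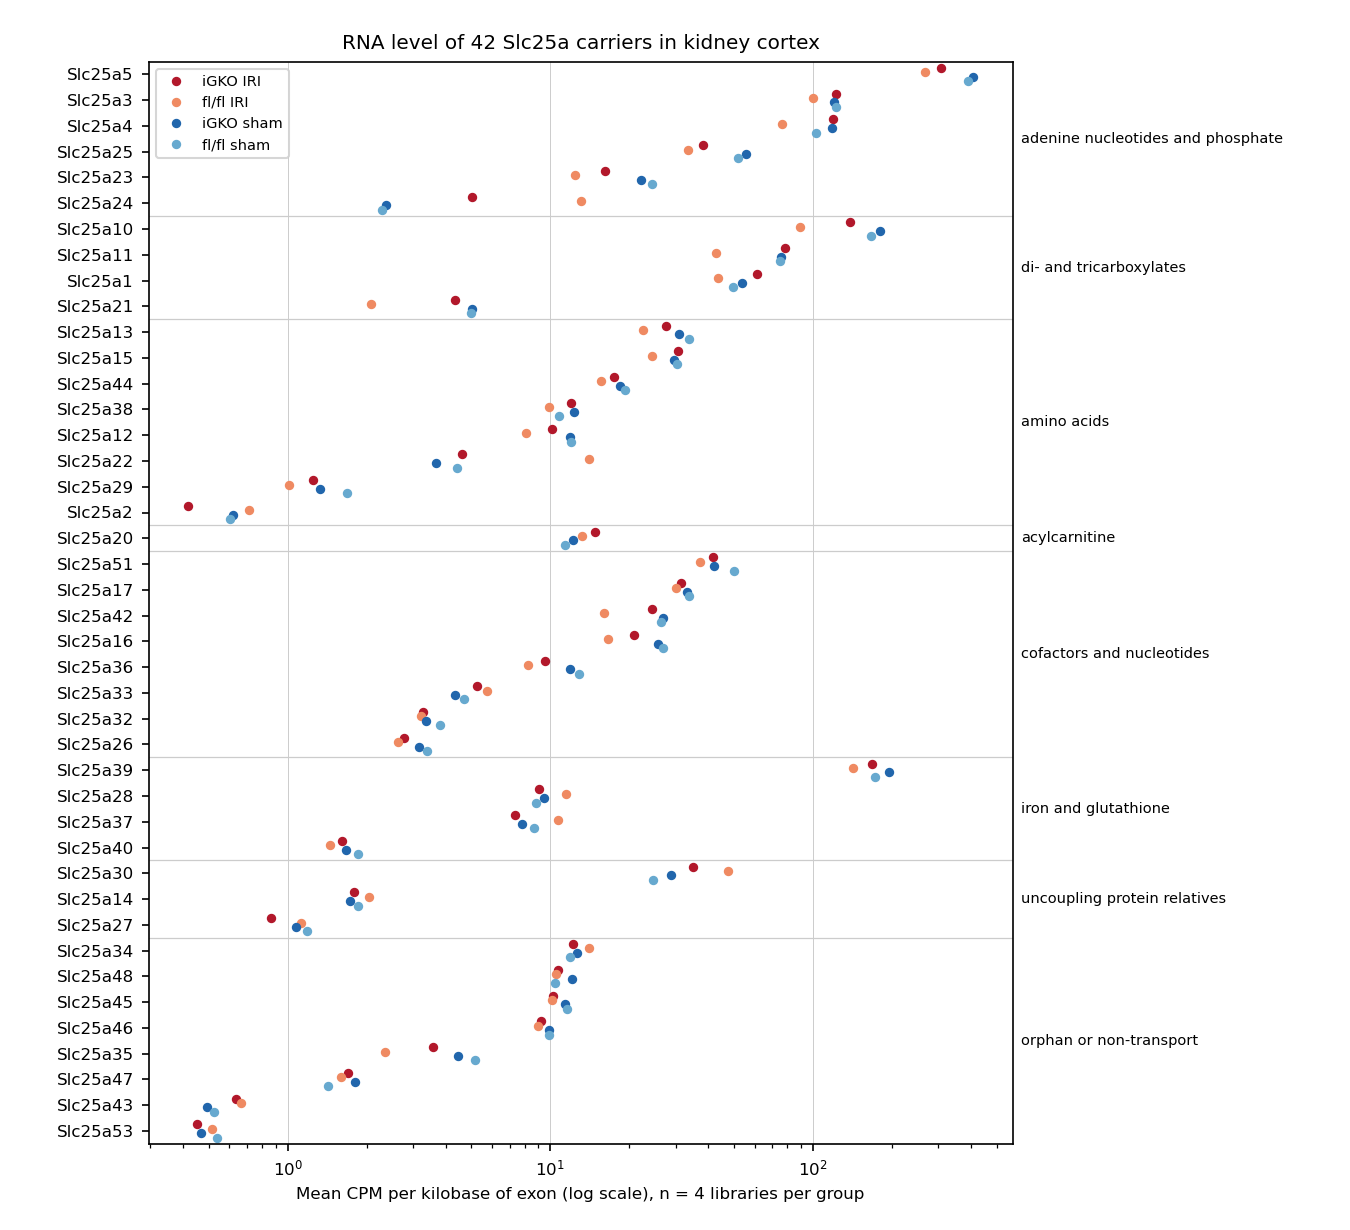
Mean level of each of 42 carriers in CPM per kilobase of exon (log axis), 1 point per group of 4 libraries, with genes grouped by substrate. Slc25a5 is highest in every group, and Slc25a24 shows the widest gap between fl/fl IRI and the sham groups.

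In fl/fl mice 9 of the 43 carriers changed after IRI, 2 higher and 7 lower. The calcium-regulated ATP-Mg/phosphate carrier Slc25a24 rose 5.72-fold, while its close relative Slc25a23 fell, as did the pair of aspartate-glutamate carriers Slc25a12 and Slc25a13. The glutamate carrier Slc25a22 was the other gene to rise, and Slc25a21, Slc25a36, Slc25a16 and Slc25a35 also fell. A gene is called changed here where its edgeR quasi-likelihood p, adjusted by Benjamini-Hochberg over all 17972 genes tested, is under 0.05. The 9 are 20.9% of the carriers, beside 15.5% of all genes tested. By direction, 8.46% of all genes rose and 7.01% fell. The median log2 fold change was -0.29 over the 43 carriers and 0.01 over all genes, and 30 of the 43 had a value below 0, beside 8846 of all 17972 genes. The count of 9 depends on single libraries: it was 15, 3 higher and 12 lower, without fl/fl IRI 1 (beside 23.6% of all genes, 11.9% higher and 11.6% lower). It was 3 without fl/fl sham 3 or 4, 4 without fl/fl sham 1 or fl/fl IRI 4, 5 without fl/fl IRI 3 and 6 without fl/fl IRI 2 or fl/fl sham 2, beside 7.91% to 12.3% of all genes. When only the 8 fl/fl libraries were fitted it was 5, beside 9.03%, and Slc25a12, Slc25a13, Slc25a23, Slc25a24 and Slc25a36 were those left. DESeq2 called 12, the 9 with Slc25a10, Slc25a11 and Slc25a30, beside 16.6% of the genes it tested. Without a filter on low counts edgeR called 9, beside 7.19%, with Slc25a30 in place of Slc25a13.

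**Figure D2:**
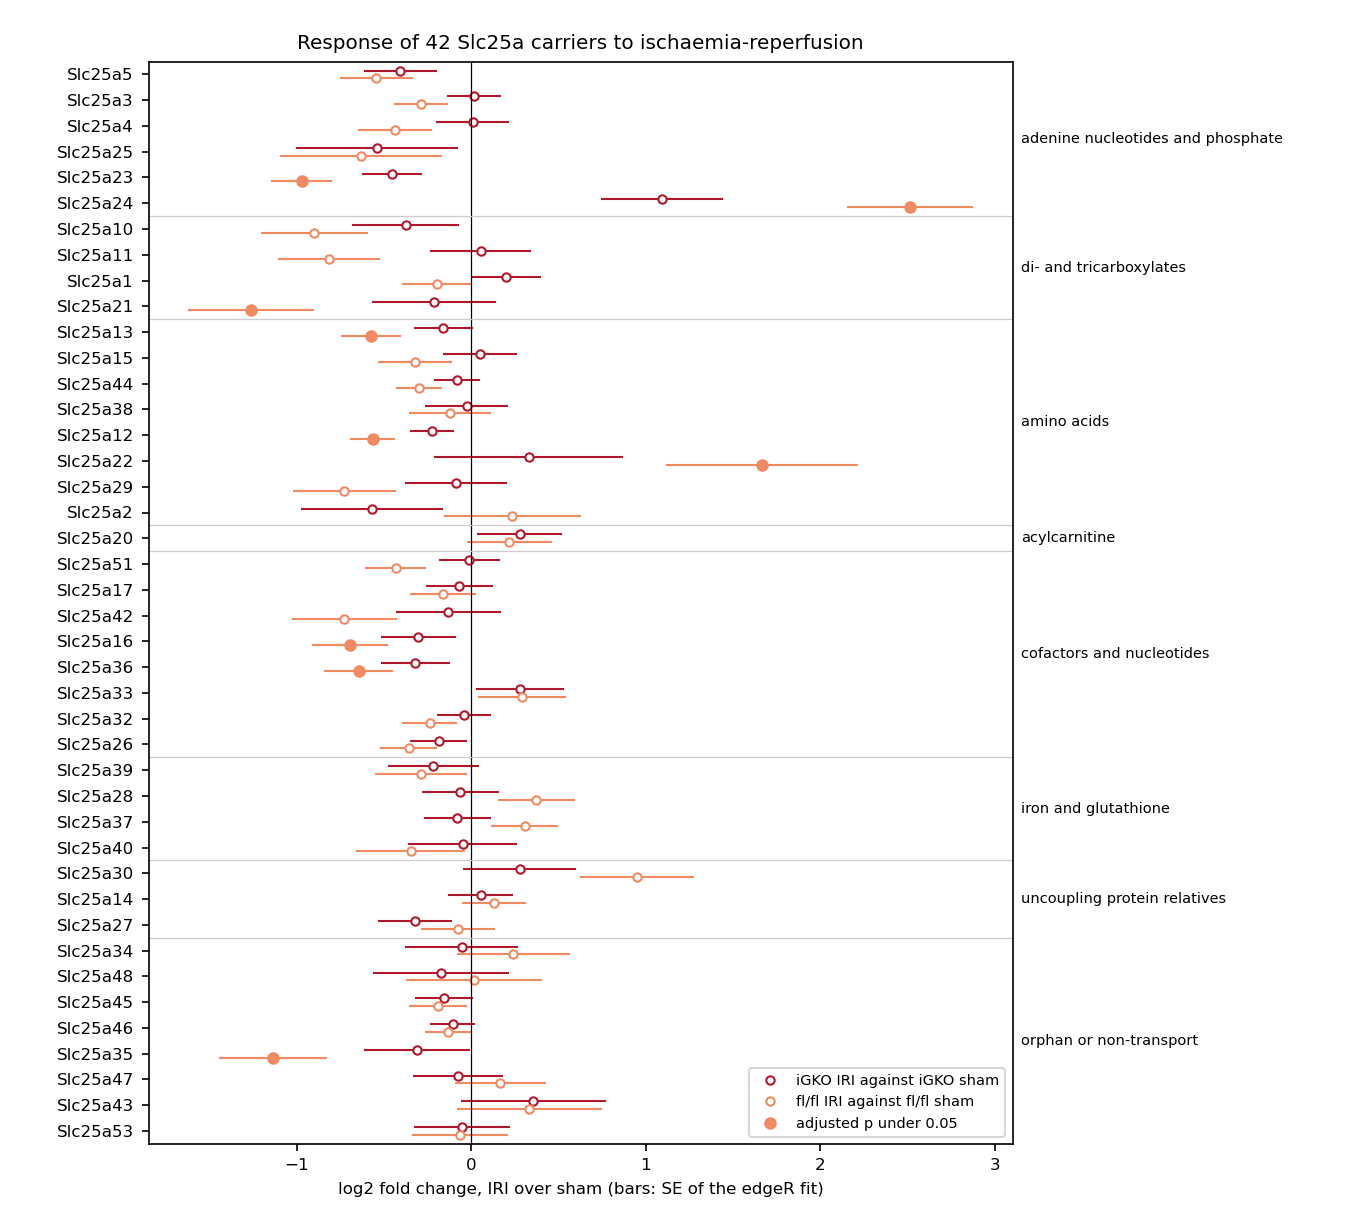
Log2 fold change, IRI over sham, of 42 carriers in iGKO mice (dark red) and in fl/fl mice (orange), with bars of 1 SE of the edgeR fit and filled points where the adjusted p is under 0.05. All 9 filled points belong to fl/fl mice, and Slc25a24 at 2.52 lies farthest from 0.

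Among the carriers of adenine nucleotides and phosphate, 6 were tested, 1 rose and 1 fell in fl/fl mice, beside 8.46% and 7.01% of all genes (median log2 fold change -0.49). The classes are small, so a count in a class is not read as a result about it. Slc25a24 and Slc25a23 both exchange ATP-Mg for phosphate and are switched by calcium on the cytosolic side, and so help to set the adenine nucleotide pool of the matrix. Slc25a24 had 17.6, 20.7, 14.7 and 16.3 CPM in iGKO IRI and 14.8, 48.0, 79.6 and 37.9 CPM in fl/fl IRI, against 8.86, 11.1, 6.59 and 5.86 CPM in iGKO sham and 7.98, 6.81, 8.25 and 8.45 CPM in fl/fl sham. Every IRI library of either genotype lay above all 8 sham libraries, with fl/fl IRI 1 level with the iGKO IRI libraries and the other 3 fl/fl IRI libraries above them. In fl/fl mice the log2 fold change was 2.52 ± 0.36 (SE, adjusted p = 0.000871). Slc25a23 had 86.9, 82.8, 89.2 and 84.2 CPM in iGKO IRI and 91.5, 71.1, 57.7 and 42.8 CPM in fl/fl IRI, against 113, 119, 104 and 134 CPM in iGKO sham and 125, 129, 124 and 138 CPM in fl/fl sham. Here every IRI library lay below all 8 sham libraries, and the log2 fold change in fl/fl mice was -0.97 ± 0.18 (SE, adjusted p = 0.00275). Both calls held with any 1 of the 16 libraries left out, with adjusted p of at most 0.00594 for Slc25a24 and 0.0121 for Slc25a23.

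The other 4 of the class did not pass in fl/fl mice. Slc25a5 had 617, 475, 509 and 424 CPM in iGKO IRI and 442, 493, 350.4 and 467 CPM in fl/fl IRI, against 750.1, 772, 780.2 and 382 CPM in iGKO sham and 736, 531, 618 and 673 CPM in fl/fl sham. The fl/fl IRI libraries lay below the fl/fl sham libraries without overlap, and iGKO sham 4 was as low as the IRI libraries. For Slc25a5 the log2 fold change in fl/fl mice was -0.54 ± 0.21 (SE, adjusted p = 0.0897), and it passed without iGKO sham 4, at -0.54 (adjusted p = 0.0224). Slc25a4, the translocase of muscle and other oxidative tissue, stood at -0.44 ± 0.21 (SE, adjusted p = 0.17), the phosphate carrier Slc25a3 at -0.29 ± 0.15 (SE, adjusted p = 0.219), and Slc25a25, the third calcium-regulated ATP-Mg carrier, at -0.63 ± 0.47 (SE, adjusted p = 0.382). Without fl/fl IRI 1, Slc25a4 passed at -0.65 (adjusted p = 0.0276).

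Promoter windows of 250 bases before to 50 after the start of transcription were available from RefSeq for 33 of the 43 members and for 8 of the 9 called. They are shown for the 3 carriers whose call never depended on 1 library and for Slc25a13, the one called carrier with a match to a motif searched, all 5′ to 3′ on the gene's strand in build GRCm38.p6. Slc25a24 is at chr3:109122899-109123198, plus strand, 72.3% G and C. The first of the pair of Slc25a23 windows is at chr17:57059814-57060113, minus strand, 54.0% G and C. Slc25a12 is at chr2:71367706-71368005, minus strand, 54.3% G and C, and Slc25a13 is at chr6:6217124-6217423, minus strand, 65.0% G and C, with an AP-1 match in capitals.
Slc25a24: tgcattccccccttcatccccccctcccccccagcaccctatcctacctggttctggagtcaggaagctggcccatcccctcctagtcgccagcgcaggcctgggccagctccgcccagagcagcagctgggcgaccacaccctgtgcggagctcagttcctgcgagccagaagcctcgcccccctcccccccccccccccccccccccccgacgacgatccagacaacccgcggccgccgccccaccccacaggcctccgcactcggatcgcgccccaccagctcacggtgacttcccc
Slc25a23: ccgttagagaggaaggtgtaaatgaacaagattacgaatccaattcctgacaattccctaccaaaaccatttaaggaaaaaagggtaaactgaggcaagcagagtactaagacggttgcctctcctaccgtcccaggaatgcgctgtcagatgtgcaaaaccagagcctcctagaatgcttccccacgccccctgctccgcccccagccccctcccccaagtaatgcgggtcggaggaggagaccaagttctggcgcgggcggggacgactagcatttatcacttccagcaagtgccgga
Slc25a12: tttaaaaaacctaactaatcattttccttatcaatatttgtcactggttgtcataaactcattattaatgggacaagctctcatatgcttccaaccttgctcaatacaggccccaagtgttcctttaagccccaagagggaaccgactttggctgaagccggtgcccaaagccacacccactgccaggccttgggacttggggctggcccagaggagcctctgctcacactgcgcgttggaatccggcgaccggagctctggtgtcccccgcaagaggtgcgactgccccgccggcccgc
Slc25a13: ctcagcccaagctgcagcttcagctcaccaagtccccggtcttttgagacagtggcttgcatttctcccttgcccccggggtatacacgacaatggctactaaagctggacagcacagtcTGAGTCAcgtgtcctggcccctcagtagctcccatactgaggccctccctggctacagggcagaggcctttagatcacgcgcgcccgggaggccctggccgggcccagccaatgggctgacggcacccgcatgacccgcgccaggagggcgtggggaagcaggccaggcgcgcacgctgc
The motifs were searched on both strands: ERR (oestrogen-related receptor) as AAGGTCA, AP-1 as TGANTCA and ATF4 as TGATGNAA, where N is any base, and the palindromic consensus of NRF1. Of all 32851 windows, 4.72% hold the ERR letters, 7.81% the AP-1 letters, 3.97% the ATF4 letters and 1.27% the NRF1 letters. Of the 43 windows of the members, 1 holds ERR, 2 AP-1, 0 ATF4 and 0 NRF1. In the 12 windows of the called members the only match was AP-1 in Slc25a13, at position -130 from the start.

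The aspartate-glutamate carriers export aspartate from the matrix in exchange for glutamate and a proton, the irreversible step of the malate-aspartate shuttle. Slc25a12 is also known as aralar and Slc25a13 as citrin, which supplies aspartate to the urea cycle in liver. Slc25a13 had 94.0, 100.0, 109.6 and 116 CPM in iGKO IRI and 98.9, 95.4, 74.1 and 75.5 CPM in fl/fl IRI, against 123, 121, 148 and 77.9 CPM in iGKO sham and 130.1, 126, 140.2 and 116 CPM in fl/fl sham. The fl/fl IRI libraries lay below all fl/fl sham libraries, and iGKO sham 4 fell among them. In fl/fl mice Slc25a13 fell by a log2 fold change of -0.58 ± 0.17 (SE, adjusted p = 0.0317), and with fl/fl IRI 3 or 4 or fl/fl sham 1, 2, 3 or 4 left out, the adjusted p rose past 0.05, to between 0.0508 and 0.0982. Slc25a12 had 72.2, 66.6, 76.7 and 82.2 CPM in iGKO IRI and 69.9, 62.4, 54.0 and 51.6 CPM in fl/fl IRI, against 83.6, 88.2, 99.2 and 77.7 CPM in iGKO sham and 87.2, 83.8, 87.3 and 93.9 CPM in fl/fl sham. Here too the fl/fl groups did not overlap, and the log2 fold change was -0.57 ± 0.13 (SE, adjusted p = 0.00848). The call of Slc25a12 held with any 1 library left out.

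Slc25a22, which brings glutamate into the matrix together with a proton, moved the other way. Slc25a22 had 24.9, 22.8, 40.8 and 22.2 CPM in iGKO IRI and 24.3, 54.2, 25.7 and 232 CPM in fl/fl IRI, against 19.5, 25.6, 18.2 and 24.9 CPM in iGKO sham and 25.3, 39.1, 24.8 and 16.4 CPM in fl/fl sham. iGKO IRI 3, fl/fl IRI 2 and fl/fl IRI 4 lay above all sham libraries, and fl/fl IRI 4 held more than all other fl/fl IRI libraries together. Slc25a22 rose in fl/fl mice by 1.67 ± 0.55 (SE, adjusted p = 0.0497) on the log2 scale, and without fl/fl IRI 4 it was 0.40 (adjusted p = 0.473). Over the 16 fits that leave out 1 library each, the adjusted p ranged from 0.0106 to 0.473, and it was under 0.05 only without fl/fl IRI 1, fl/fl IRI 3 or iGKO sham 4. The 5 other amino acid carriers did not pass: in fl/fl mice the log2 fold change was -0.73 ± 0.29 for the basic amino acid carrier Slc25a29, -0.32 ± 0.21 for the ornithine carrier Slc25a15, -0.30 ± 0.13 for the branched-chain amino acid carrier Slc25a44, -0.12 ± 0.24 for Slc25a38, which serves haem synthesis with glycine, and 0.24 ± 0.39 for the sparsely read ornithine carrier Slc25a2. Without fl/fl IRI 4, Slc25a29 passed at -0.99 (adjusted p = 0.0439). In all, 8 amino acid carriers were tested, 1 rose and 2 fell, beside 8.46% and 7.01% of all genes (median -0.31).

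All 4 carriers of di- and tricarboxylates had a log2 fold change below 0 in fl/fl mice (median -0.86), and 1 passed, beside 7.01% of all genes that fell. That was Slc25a21, the carrier of oxoadipate and oxoglutarate, which take part in the breakdown of lysine and tryptophan. Slc25a21 had 23.9, 16.2, 19.8 and 24.6 CPM in iGKO IRI and 19.1, 12.7, 5.18 and 3.60 CPM in fl/fl IRI, against 24.7, 20.6, 30.6 and 22.1 CPM in iGKO sham and 27.3, 24.0, 22.9 and 23.3 CPM in fl/fl sham. The 4 fl/fl IRI libraries lay below all 8 sham libraries and spread widely among themselves. Its log2 fold change was -1.26 ± 0.36 (SE, adjusted p = 0.0281), and with fl/fl IRI 3 or 4 or fl/fl sham 1, 3 or 4 left out, the adjusted p rose past 0.05, to between 0.0536 and 0.0859.

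Slc25a10, which exchanges malate or succinate for phosphate, was the most abundant of the class per kilobase. Slc25a10 had 538, 399, 460.5 and 515 CPM in iGKO IRI and 471, 406, 116 and 235 CPM in fl/fl IRI, against 596, 624, 531 and 733 CPM in iGKO sham and 567, 708, 425 and 594 CPM in fl/fl sham. The lowest values were in fl/fl IRI 3 and 4, and fl/fl IRI 1 made the fl/fl groups overlap. The log2 fold change was -0.90 ± 0.31 (SE, adjusted p = 0.0565) for Slc25a10, -0.82 ± 0.29 (SE, adjusted p = 0.0672) for Slc25a11, the oxoglutarate-malate carrier, and -0.20 ± 0.20 (SE, adjusted p = 0.529) for Slc25a1, which exports citrate. Without fl/fl IRI 1, Slc25a10 passed at -1.18 (adjusted p = 0.0105) and Slc25a11 at -1.30 (adjusted p = 0.000438). Slc25a10 also passed without fl/fl IRI 2, at -1.07 (adjusted p = 0.0489).

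Slc25a20, the carnitine-acylcarnitine carrier that admits fatty acids for oxidation, did not pass. Slc25a20 had 71.7, 51.3, 87.2 and 77.4 CPM in iGKO IRI and 60.3, 83.0, 37.3 and 75.1 CPM in fl/fl IRI, against 63.0, 64.2, 61.0 and 49.3 CPM in iGKO sham and 47.6, 76.0, 59.1 and 37.4 CPM in fl/fl sham. The groups overlapped, and the log2 fold change in fl/fl mice was 0.22 ± 0.24 (SE, adjusted p = 0.589).

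Of 9 carriers of cofactors and nucleotides, 2 fell and 0 rose in fl/fl mice, beside 7.01% and 8.46% of all genes (median -0.43). Slc25a36 carries pyrimidine nucleotides. Slc25a36 had 98.4, 104, 86.6 and 76.6 CPM in iGKO IRI and 77.7, 77.3, 80.5 and 81.3 CPM in fl/fl IRI, against 134, 113, 147 and 62.3 CPM in iGKO sham and 109.8, 118, 134 and 134 CPM in fl/fl sham. The fl/fl IRI libraries lay close together and below all fl/fl sham libraries, and the lowest value of all was in iGKO sham 4. Its log2 fold change was -0.64 ± 0.20 (SE, adjusted p = 0.0377), and with fl/fl IRI 2, 3 or 4 or fl/fl sham 1, 2, 3 or 4 left out, the adjusted p rose past 0.05, to between 0.055 and 0.0964. Slc25a16 is a carrier linked to coenzyme A. Slc25a16 had 104, 97.0, 99.1 and 100.1 CPM in iGKO IRI and 98.3, 83.8, 45.5 and 90.9 CPM in fl/fl IRI, against 140.1, 139.7, 138 and 76.1 CPM in iGKO sham and 147, 126, 117 and 126 CPM in fl/fl sham. Again the fl/fl groups did not overlap, and iGKO sham 4 was far below the other iGKO sham libraries. On the log2 scale Slc25a16 stood at -0.70 ± 0.22 (SE, adjusted p = 0.0397), and with fl/fl IRI 2, 3 or 4, fl/fl sham 1, 2, 3 or 4 or iGKO IRI 3 left out, the adjusted p rose past 0.05, to between 0.0509 and 0.103.

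Slc25a51, the NAD carrier, was the most abundant of this class per kilobase. Slc25a51 had 208, 201, 260.4 and 247 CPM in iGKO IRI and 235, 208, 136 and 241 CPM in fl/fl IRI, against 239.9, 224, 269 and 192 CPM in iGKO sham and 268, 253, 319 and 267 CPM in fl/fl sham. Its fl/fl groups did not overlap, but it did not pass, with a log2 fold change of -0.43 ± 0.18 (SE, adjusted p = 0.103). The coenzyme A carrier Slc25a42 stood at -0.73 ± 0.30, the S-adenosylmethionine carrier Slc25a26 at -0.36 ± 0.16, Slc25a32, linked to folate and flavin, at -0.24 ± 0.16, the peroxisomal carrier Slc25a17 at -0.16 ± 0.19 and the pyrimidine nucleotide carrier Slc25a33 at 0.29 ± 0.25. Without fl/fl IRI 1, Slc25a42 passed in the same direction (adjusted p = 0.0241).

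The 4 carriers of iron and glutathione had 0 calls in fl/fl mice, beside 15.5% of all genes (median 0.01). Slc25a39, which brings glutathione into the matrix, was the most abundant of them. Slc25a39 had 368, 366, 447 and 661 CPM in iGKO IRI and 586, 399, 272 and 303 CPM in fl/fl IRI, against 435, 446, 457 and 804 CPM in iGKO sham and 462, 551, 448 and 444 CPM in fl/fl sham. The groups overlapped, and iGKO sham 4 held the highest value of all. The log2 fold change was -0.29 ± 0.26 (SE, adjusted p = 0.492) for Slc25a39 and -0.35 ± 0.31 for its relative Slc25a40. It was 0.31 ± 0.19 for mitoferrin-1, Slc25a37, and 0.37 ± 0.22 for mitoferrin-2, Slc25a28, which import iron for haem and iron-sulphur clusters.

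None of the 3 relatives of the uncoupling proteins passed, beside 15.5% of all genes. Slc25a30 was named kidney mitochondrial carrier protein for its place of expression. Slc25a30 had 146, 135, 118 and 240.4 CPM in iGKO IRI and 182, 196, 112 and 376 CPM in fl/fl IRI, against 104, 142, 160.4 and 122 CPM in iGKO sham and 89.8, 177, 93.0 and 88.7 CPM in fl/fl sham. The fl/fl IRI libraries were mostly above the fl/fl sham libraries, but fl/fl IRI 3 and fl/fl sham 2 made the groups overlap. On the log2 scale Slc25a30 stood at 0.95 ± 0.33 (SE, adjusted p = 0.0607), and it passed when any of 3 single libraries was left out. It was 1.03 (adjusted p = 0.0456) without fl/fl IRI 1, 1.17 (adjusted p = 0.0336) without fl/fl IRI 3 and 1.26 (adjusted p = 0.0255) without fl/fl sham 2. The brain carriers Slc25a14 and Slc25a27 stood at 0.13 ± 0.19 and -0.08 ± 0.21.

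Of the 8 members put in the class of orphan or non-transport proteins, 1 fell, Slc25a35, beside 7.01% of all genes. Slc25a35 had 8.54, 11.1, 22.1 and 10.9 CPM in iGKO IRI and 14.6, 7.57, 7.15 and 5.31 CPM in fl/fl IRI, against 14.5, 18.1, 16.0 and 16.7 CPM in iGKO sham and 16.7, 14.6, 23.3 and 21.4 CPM in fl/fl sham. The fl/fl groups touched without overlap, fl/fl IRI 1 lying just under the lowest fl/fl sham library, and iGKO IRI 3 was the highest of the IRI libraries. The highest values of all, in fl/fl sham 3 and iGKO IRI 3, stood in the libraries with most RNA of fat markers. Ucp1, Adipoq, Plin1 and Cidea summed there to 428 and 534 CPM. The part of fat in the Slc25a35 values was not tested. Slc25a35 stood at -1.14 ± 0.31 (SE, adjusted p = 0.0221) on the log2 scale, and with fl/fl IRI 2, 3 or 4 or fl/fl sham 3 or 4 left out, the adjusted p rose past 0.05, to between 0.0541 and 0.0698. Slc25a35 shares exonic sequence with Rangrf on the other strand, which had 39.8% as many reads, and the strand setting of the counting is not given, so its value is uncertain. Slc25a34 was the most abundant of the class per kilobase. Slc25a34 had 39.7, 20.5, 32.5 and 37.0 CPM in iGKO IRI and 32.3, 50.8, 13.6 and 53.3 CPM in fl/fl IRI, against 33.9, 25.9, 28.4 and 46.6 CPM in iGKO sham and 27.7, 39.0, 30.0 and 30.5 CPM in fl/fl sham. Its groups overlapped, and the log2 fold change was 0.24 ± 0.32 (SE, adjusted p = 0.662). Slc25a46, an outer membrane protein that acts in mitochondrial dynamics, stood at -0.13 ± 0.13, and Slc25a43, Slc25a45, Slc25a47, Slc25a48 and Slc25a53 ranged from -0.19 for Slc25a45 to 0.33 for Slc25a43.

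**Figure D3:**
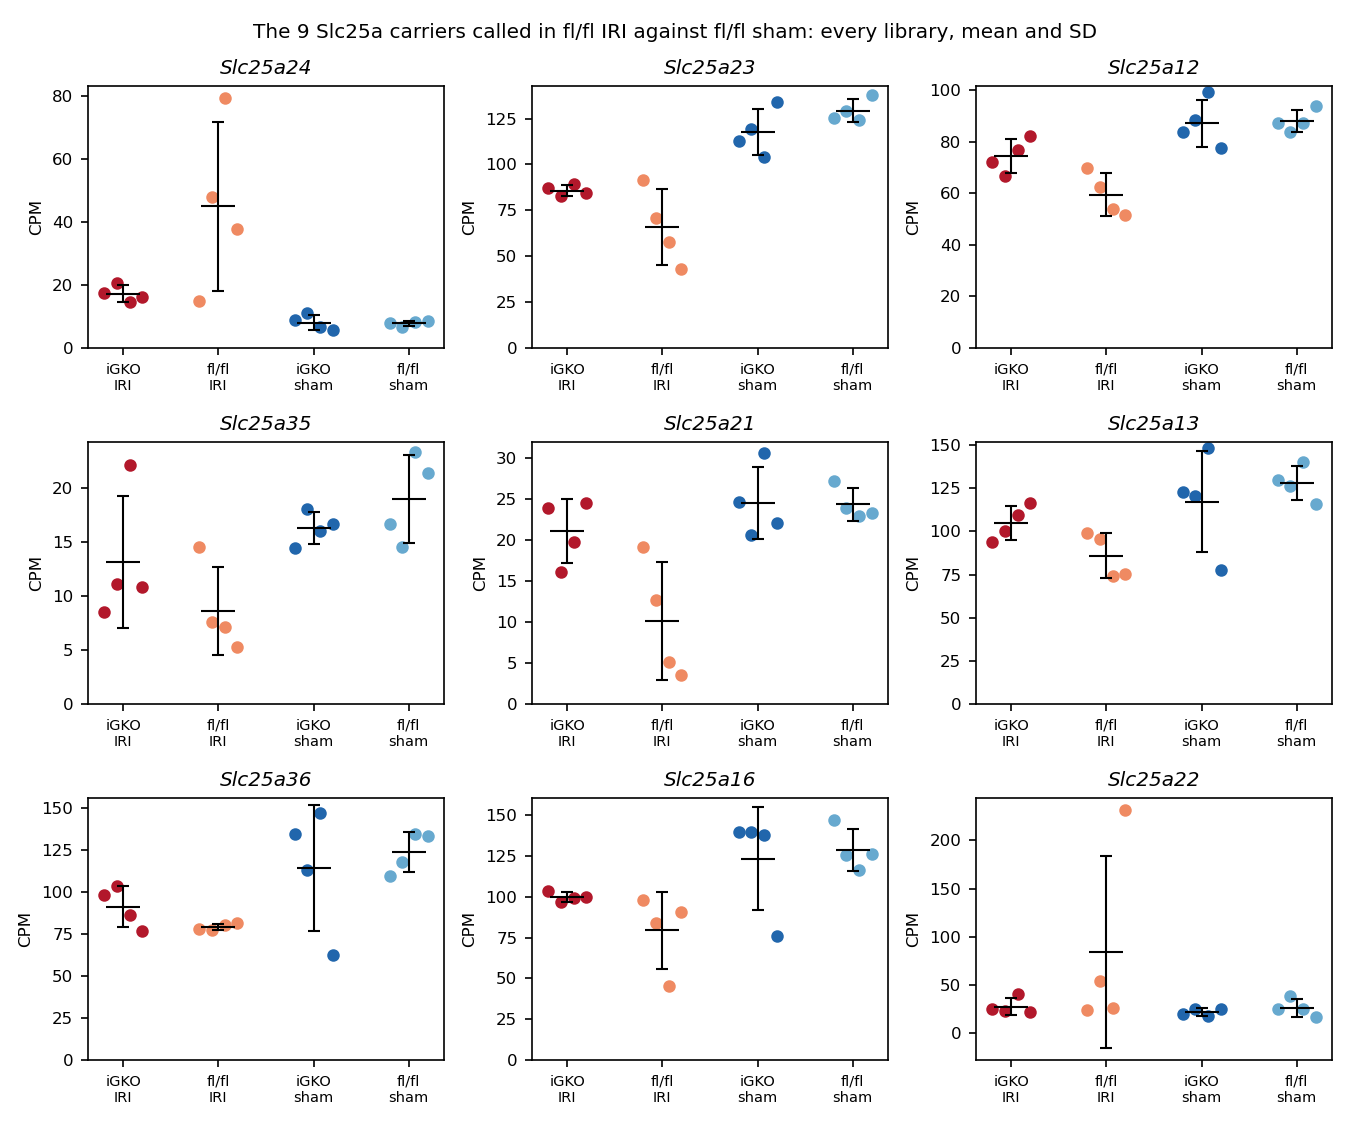
CPM of the 9 called carriers in every library, with the mean and SD of each group of 4 (horizontal line and bar). Slc25a24 and Slc25a23 separate all 8 IRI libraries from all 8 sham libraries, and the mean of Slc25a22 in fl/fl IRI rests on 1 library at 232 CPM.

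Counted without a model, 12 of the 43 carriers did not overlap between fl/fl IRI and fl/fl sham, 1 higher and 11 lower, which is 27.9% of the carriers beside 19.5% of all genes tested (9.65% higher and 9.82% lower). The 12 were Slc25a24 above, and Slc25a5, Slc25a12, Slc25a13, Slc25a16, Slc25a21, Slc25a23, Slc25a26, Slc25a35, Slc25a36, Slc25a44 and Slc25a51 below. Slc25a26 shares exonic sequence with Lrig1 on the other strand, which had 256% as many reads, so its value is uncertain.

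In iGKO mice 0 of the 43 carriers passed after IRI, beside 0% of all genes tested, and DESeq2 likewise called 0 carriers, beside 0.25% of all genes. Unadjusted p was under 0.05 for 2 carriers by edgeR, Slc25a24 and Slc25a23, beside 6.37% of all genes. These were also the only 2 carriers whose iGKO IRI and iGKO sham libraries did not overlap, Slc25a24 higher and Slc25a23 lower (4.65% of the carriers, beside 5% of all genes, 2.24% higher and 2.76% lower). The log2 fold change of Slc25a24 was 1.09 ± 0.35 (SE, adjusted p = 0.59) and that of Slc25a23 was -0.45 ± 0.17 (SE, adjusted p = 0.682). For the other called carriers of fl/fl mice it was -0.23 ± 0.13 for Slc25a12, -0.16 ± 0.17 for Slc25a13, -0.22 ± 0.35 for Slc25a21, -0.32 ± 0.20 for Slc25a36, -0.30 ± 0.22 for Slc25a16, -0.31 ± 0.30 for Slc25a35 and 0.33 ± 0.54 for Slc25a22. For Slc25a13, Slc25a36, Slc25a16, Slc25a12 and Slc25a24 the lowest iGKO sham library was iGKO sham 4, so their values depend on it. For Slc25a23 the same library was the highest of iGKO sham. With 1 library left out the log2 fold change ranged from -0.30 to -0.03 for Slc25a13, -0.51 to -0.18 for Slc25a36 and -0.46 to -0.24 for Slc25a16. It ranged from -0.28 to -0.16 for Slc25a12, 0.98 to 1.28 for Slc25a24 and -0.51 to -0.37 for Slc25a23. The median over the 43 carriers was -0.08, beside -0.02 over all genes, and 31 of the 43 had a value below 0, beside 9634 of all 17972 genes. Of the 9 carriers called in fl/fl mice, 4, 5, 5 and 3 lay beyond all 8 sham libraries in the called direction in iGKO IRI 1 to 4, and 4, 6, 7 and 7 did so in fl/fl IRI 1 to 4. The 9 and their directions were chosen from the fl/fl libraries themselves. These tallies therefore favour fl/fl IRI and do not compare the genotypes.

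Whether the response differs between genotypes was tested by the interaction, the log2 response in iGKO mice minus that in fl/fl mice. It called 0 of the 43 carriers, beside 0% of all genes, by edgeR, and 0 carriers beside 0.641% of all genes by DESeq2. Unadjusted p was under 0.05 for 3 carriers by edgeR, beside 11.3% of all genes: Slc25a24 at -1.42 ± 0.49 (SE, adjusted p = 0.321), Slc25a11 at 0.87 ± 0.41 (SE, adjusted p = 0.441) and Slc25a23 at 0.52 ± 0.25 (SE, adjusted p = 0.442). Without fl/fl IRI 1 the interaction called 3 carriers, beside 4.22% of all genes, namely Slc25a11 at 1.36 (adjusted p = 0.0144), Slc25a21 at 1.55 (adjusted p = 0.0493) and Slc25a24 at -1.72 (adjusted p = 0.0125). That library was left out for its low Havcr1, while iGKO IRI libraries of like Havcr1 were kept, so these 3 calls do not show a difference between the genotypes. The difference in the number of calls between the genotypes is therefore not a difference shown for any named carrier in the fit of all 16 libraries.

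Between iGKO IRI and fl/fl IRI 0 of the 43 carriers passed, beside 0.851% of all genes. Unadjusted p was under 0.05 for 10 carriers, beside 19.1% of all genes. Values above 0 were found for 31 of the 43 carriers, beside 8733 of all 17972 genes (median 0.16, beside -0.01 over all genes). This comparison uses the same fl/fl IRI libraries as the response of fl/fl mice, so its signs are not independent of it. The carrier with the smallest p was Slc25a24, which averaged 17.3 ± 2.57 CPM in iGKO IRI and 45.1 ± 26.9 CPM in fl/fl IRI (SD, n = 4 each). On the log2 scale iGKO IRI stood at -1.38 ± 0.34 (SE, adjusted p = 0.062) to fl/fl IRI. Slc25a22 stood at -1.60 ± 0.55, and mitoferrin-1, Slc25a37, at -0.55 ± 0.19. The carriers higher in iGKO IRI at an unadjusted p under 0.05 included Slc25a21 at 1.06 ± 0.36, Slc25a11 at 0.88 ± 0.29, Slc25a4 at 0.65 ± 0.21, Slc25a1 at 0.50 ± 0.20, Slc25a23 at 0.38 ± 0.17 and Slc25a12 at 0.32 ± 0.13, none of which passed after adjustment. Slc25a11 overlaps Rnf167 on the other strand, which had 34.1% as many reads, so its value is uncertain. All 4 carriers of di- and tricarboxylates were above 0 (median 0.76).

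Some settings gave calls in this comparison. DESeq2 called 4 carriers, beside 5.36% of all genes: Slc25a11 and Slc25a4 higher in iGKO IRI (beside 2.3%) and Slc25a22 and Slc25a24 lower (beside 3.06%). Without the filter on low counts edgeR called 1, Slc25a24, beside 1.02%. Without fl/fl IRI 1, a fit that favours a difference between the genotypes, it called 11, beside 13.6% of all genes. Of these 11 carriers, 8 were higher in iGKO IRI (beside 6.97%), among them Slc25a1, Slc25a4, Slc25a11, Slc25a12, Slc25a21, Slc25a23 and Slc25a35, and 3 were lower (beside 6.6%), Slc25a22, Slc25a24 and Slc25a37. With all libraries kept, 1 carrier did not overlap between iGKO IRI and fl/fl IRI, the scarce Slc25a27, lower in iGKO IRI at -0.38 ± 0.21 (2.33% of the carriers, beside 5.52% of all genes in either direction and 3.04% lower).

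After sham operation 0 of the 43 carriers passed between iGKO and fl/fl mice, beside 0% of all genes by edgeR and 0% by DESeq2. At an unadjusted p under 0.05 there were likewise 0 carriers, beside 1.17% of all genes, and 0 carriers had groups without overlap, beside 1.93%. The log2 fold changes, iGKO over fl/fl, ranged from -0.34 for Slc25a29 to 0.34 for Slc25a47 (median -0.02). The smallest p was that of the NAD carrier Slc25a51, at -0.26 ± 0.17. The carriers called in the fl/fl response stood at 0.04 ± 0.35 for Slc25a24, -0.14 ± 0.17 for Slc25a23 and -0.01 ± 0.13 for Slc25a12. A p above the threshold does not show that these levels are equal: the targeted gene Degs1 was not called in this comparison either. With 1 library left out, its log2 fold change after sham operation ranged from -0.95 to -0.68, with an adjusted p of 0.99957 or more. After IRI the edgeR call of Degs1 was lost in 6 of the 16 fits that leave out 1 library (adjusted p up to 0.133).

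**Figure D4:**
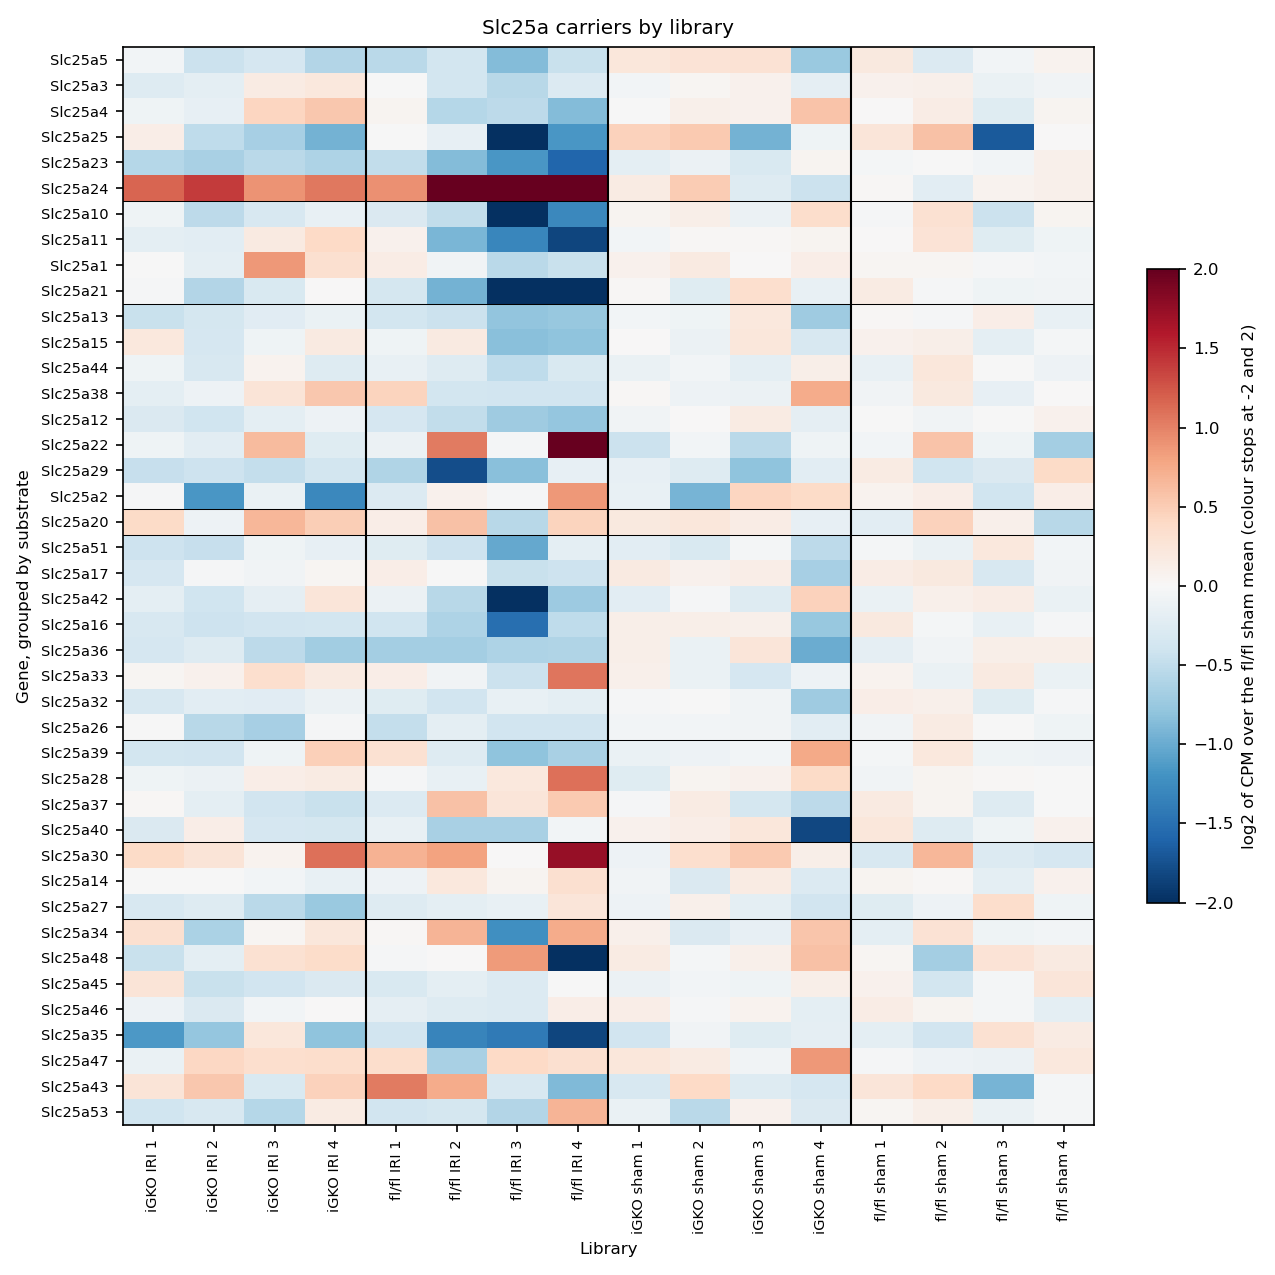
Log2 of CPM in each of the 16 libraries over the fl/fl sham mean for 42 carriers, with colour limits at -2 and 2. Slc25a24 is raised and Slc25a23 lowered in every IRI library, many of the lowest values stand in fl/fl IRI 3 and 4, and iGKO sham 4 departs from the other sham libraries in several rows.

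Genes around the carriers were read from lists chosen by function. Of 22 other channels and transporters of mitochondria, 1 rose and 6 fell in fl/fl mice, beside 8.46% and 7.01% of all genes. The outer membrane protein Tspo rose by 0.77 ± 0.18 (SE, adjusted p = 0.00982) on the log2 scale. Sideroflexins, a separate family whose member Sfxn1 carries serine, made up 4 of the 6: Sfxn4 stood at -1.17 ± 0.24 (SE, adjusted p = 0.00572), Sfxn2 at -1.10 ± 0.28 (SE, adjusted p = 0.0154), Sfxn5 at -0.89 ± 0.22 (SE, adjusted p = 0.0142) and Sfxn1 at -0.71 ± 0.20 (SE, adjusted p = 0.0221). The pyruvate carrier subunit Mpc1 stood at -0.74 ± 0.24 (SE, adjusted p = 0.0491) and the outer membrane channel Vdac1 at -0.52 ± 0.15 (SE, adjusted p = 0.034). The calls of Tspo, Sfxn4 and Sfxn5 held with any 1 library left out. That of Sfxn2 was lost without fl/fl IRI 3, that of Sfxn1 without fl/fl IRI 3 or 4 or fl/fl sham 1 or 2, and that of Vdac1 without fl/fl IRI 2, 3 or 4 or fl/fl sham 1, 3 or 4. That of Mpc1 held only without fl/fl sham 2, iGKO IRI 1, iGKO IRI 4 or iGKO sham 4. The adjusted p of these lost calls was at most 0.143.

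Of 6 enzymes of the malate-aspartate and glycerophosphate shuttles, 2 fell, beside 7.01% of all genes. They were the malate dehydrogenase Mdh1 at -0.97 ± 0.19 (SE, adjusted p = 0.00406) and the glycerophosphate dehydrogenase Gpd2 at -0.89 ± 0.23 (SE, adjusted p = 0.0167). The call of Mdh1 held with any 1 library left out, and that of Gpd2 was lost without fl/fl IRI 3 or fl/fl sham 2 (adjusted p up to 0.0579). None of 5 genes of carnitine uptake and acylcarnitine handling passed, beside 15.5% of all genes. Of 7 genes of ornithine and arginine handling that were tested, 1 rose and 3 fell, beside 8.46% and 7.01% of all genes. The mitochondrial arginase Arg2 rose by 4.11 ± 0.65 (SE, adjusted p = 0.00134) on the log2 scale, and Gatm, the first enzyme of creatine synthesis, stood at -2.26 ± 0.58 (SE, adjusted p = 0.0165), Ass1 at -1.17 ± 0.31 (SE, adjusted p = 0.018) and Asl at -0.78 ± 0.22 (SE, adjusted p = 0.0259), these last of the citrulline to arginine path. The call of Arg2 held with any 1 library left out, that of Gatm was lost without fl/fl IRI 3, that of Ass1 without fl/fl sham 3, and that of Asl without fl/fl IRI 3 or 4 or fl/fl sham 3 (adjusted p up to 0.0971). In iGKO mice 0 genes of these lists passed after IRI, beside 0% of all genes. Between iGKO IRI and fl/fl IRI 1 did, beside 0.851% of all genes: Arg2, at -2.73 ± 0.60 (SE, adjusted p = 0.0469), a call that held only without fl/fl IRI 1 or iGKO sham 4.

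The 5 other proteins of the carrier fold, Ucp1, Ucp2, Ucp3, Mtch1 and Mtch2, had 0 calls in each comparison. Of all genes, 15.5% were called in the fl/fl response, 0.851% between iGKO IRI and fl/fl IRI, and 0% in the other comparisons. Ucp1, the uncoupling protein of brown fat, had 0, 0.123, 284 and 2.64 CPM in iGKO IRI and 27.6, 0.135, 0.0681 and 0.379 CPM in fl/fl IRI, against 0.375, 0, 0.0559 and 0.0674 CPM in iGKO sham and 0.0790, 0, 279.9 and 0.140 CPM in fl/fl sham. It was high in iGKO IRI 3 and fl/fl sham 3, and the summed level of the 4 fat markers, Ucp1 included, was highest in those same libraries, at 534 and 428 CPM.

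Markers of several cell types also changed after IRI. In fl/fl mice 8 of 12 proximal tubule markers fell (median log2 fold change -1.27) and 3 of 5 thick ascending limb markers fell (median -1.25), beside 7.01% of all genes. Of the other nephron lists, 1 of 4 distal convoluted and connecting tubule markers, 1 of 5 collecting duct markers and 0 of 4 podocyte markers fell. Of 6 leukocyte markers 2 rose, beside 8.46% of all genes. Of 4 endothelium markers 1 fell and 0 rose, and of 4 fibroblast markers 0 passed, beside 15.5% of all genes in either direction. The summed proximal tubule markers ranged from 17295 to 22837 CPM in iGKO IRI, 9575 to 21982 in fl/fl IRI, 23541 to 30961 in iGKO sham and 26712 to 31812 in fl/fl sham. Summed leukocyte markers ranged from 153 to 520.5 CPM in iGKO IRI, 66.7 to 729.5 in fl/fl IRI, 58.7 to 205 in iGKO sham and 77.2 to 278 in fl/fl sham. Summed fibroblast markers stood at 7596 CPM in iGKO IRI 2, beside at most 1717 CPM in any other library. The part of these shifts in the carrier results was not tested. In whole cortex, fewer cells of a type and less RNA per cell cannot be told apart.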

How the data were processed

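RNA was sequenced from 16 kidney cortex samples, 4 per group, in stranded libraries after ribosomal RNA depletion, per the labels' protocols. The deposited values are whole-number raw counts, not normalized. Per the submitters' processing notes, build GRCm39, STAR 2.7.9a, featureCounts 1.6.3 and cutadapt 1.16 were used, with no role given. Annotation release and strand setting are not given in the sources used here.

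Symbols, gene types and exon lengths came from GENCODE M21 by gene identifier (52125 of 56980 matched). Of the 17972 genes left by filterByExpr, each was tested with edgeR 4.0.16 (R 4.3.3): TMM scaling and 1 quasi-likelihood fit of all 16 libraries with 1 coefficient per group, so p-values measure the spread between the labels' samples, pooled over groups, and libraries outside a pair affect it. The 5 contrasts were two-sided. SE is the log2 fold change divided by the root of F. The fit was tested on simulated data. Promoter windows came from RefSeq, GRCm38.p6. Counting intervals were not used, since replicates give the spread.

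The members, substrate classes and lists were chosen with earlier results of these data known. Values in every library are given for carriers called in any contrast and for the most abundant of each class. Alternatives were RLE scaling, no filter, DESeq2 1.42.0, the replicate number as a block, the compared groups alone, and each library left out. 1 carrier, counted among the 43, is not reported here. The NRF1 consensus replaced a looser form searched first. No pair of libraries of the same group agreed to within counting noise, and pairs across groups were not checked.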

Additional observations from a re-analysis of the deposited data

Results flagged for a closer look

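In 172 groups of 4 libraries (42 carriers and Degs1, in each group), 19 had 1 library set apart from the other 3 by Dixon's criterion at the 95% level, where chance alone gives about 8.6. Of the 19, 8 were in iGKO sham 4, the library with the low share of mitochondrially encoded counts. Below the other iGKO sham libraries there were Slc25a5 (382 CPM, the others 750.1 to 780.2), Slc25a16 (76.1 CPM, the others 138 to 140.1), Slc25a17 (60.6 CPM, the others 102 to 109), Slc25a26 (14.1 CPM, the others 15.5 to 15.7), Slc25a32 (14.1 CPM, the others 22.0 to 23.0) and Slc25a40 (4.38 CPM, the others 16.5 to 18.0). Above them were Slc25a38 (49.8 CPM, the others 27.2 to 30.3) and Slc25a39 (804 CPM, the others 435 to 457).

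In fl/fl IRI 4 the glutamate carrier Slc25a22 (232 CPM, the others 24.3 to 54.2) and Slc25a53 (6.89 CPM, the others 2.86 to 3.38) stood above the group. In fl/fl IRI 1, Slc25a38 (40.5 CPM, the others 22.7 to 23.1) stood above it, and in fl/fl IRI 2, Slc25a47 (2.7 CPM, the others 5.31 to 5.59) stood below. In iGKO IRI, Slc25a22 (40.8 CPM, the others 22.2 to 24.9) was high in library 3, Slc25a40 (17 CPM, the others 12.1 to 12.7) high in library 2 and Slc25a47 (3.86 CPM, the others 5.37 to 5.67) low in library 1. In iGKO sham 2, Slc25a43 (1.24 CPM, the others 0.741 to 0.782) was high. In fl/fl sham, Slc25a30 (177 CPM, the others 88.7 to 93.0) and Slc25a39 (551 CPM, the others 444 to 462) were high in library 2, and Slc25a2 (0.629 CPM, the others 0.869 to 0.908) low in library 3.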

How the results depend on the processing

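Of the 43 carriers, 9 were called in fl/fl IRI against fl/fl sham, beside 15.5% of all genes. With the compared groups alone the count was 5, beside 9.03%. With 1 library left out it ranged from 3 (without fl/fl sham 3 or 4, beside 7.91% and 8.69%) to 15 (without fl/fl IRI 1, beside 23.6%). It was 4 without fl/fl sham 1 or fl/fl IRI 4 (beside 9.19% and 10.1%) and 5 without fl/fl IRI 3 (beside 7.95%). In iGKO IRI against fl/fl IRI the count of 0 became 1 with no filter on low counts (beside 1.02%) and 4 with DESeq2 (beside 5.36%). It ranged from 0 to 11 with 1 library left out, the 11 without fl/fl IRI 1 (beside 13.6%). The interaction count ranged from 0 to 3 likewise, the 3 without fl/fl IRI 1 (beside 4.22%). Counts of 0 in the other 2 comparisons did not move under these alternatives. RLE scaling left 9, no filter 9 (Slc25a30 in, Slc25a13 out, adjusted p = 0.0517) and DESeq2 12.

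The replicate numbers showed no clear pairing of the samples. Deviations of same-numbered libraries correlated at -0.335 to 0.399 over 24 pairs (median 0.0152). Over 72 pairs with different numbers the range was -0.377 to 0.346 (median -0.00435). Such correlations cannot exclude a shared day or litter. With the replicate number as a block 9 carriers were called, beside 13.9% of all genes, Slc25a10 in place of Slc25a22. Signs turned for 5 carriers not called in the fl/fl response: with 1 library left out the log2 fold change ranged over -0.43 to 0.34 for Slc25a48, -0.20 to 0.060 for Slc25a27, -0.10 to 0.47 for Slc25a33, -0.44 to 0.074 for Slc25a53 and -0.061 to 0.37 for Slc25a2, and under the block it was -0.015 for Slc25a48. The cause was not tested. Depth limits Slc25a2, Slc25a43 and Slc25a29 most.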
